A study of Mus musculus with 12 samples.

Results

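RAW 264.7 macrophages that received miR-183-5p were compared with RAW 264.7 macrophages that received miR-142-5p or miR-222-3p by the same route, to ask what is particular to miR-183-5p. The miR-183-5p group held 3 libraries and the comparison group held 6, 3 for each of the other miRNAs, out of 12 libraries in the series. The members were chosen by their titles alone. The remaining 3 libraries came from cells given vesicles with the control mimic cel-miR-67, and they entered no test here other than an alternative fit of all 12 libraries. RAW 264.7 is a mouse macrophage line. In every group the cells were incubated for 48 h with 3 µg/ml of extracellular vesicles (EVs) from MS-1, a mouse endothelial line, and the vesicles had been electroporated with a synthetic mimic of 1 miRNA. All 9 libraries therefore shared the endothelial vesicles, the electroporation and the presence of a mammalian mimic, and differed in which mimic was loaded. Poly(A) RNA was sequenced. Each title carries a number from 1 to 3, and what the number stands for is not stated. Nothing in the labels says that libraries of a group came from separate cultures. The main p-values therefore measure the spread between these libraries that is left once the number is accounted for. That spread may be technical.

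A microRNA guides an Argonaute protein to messenger RNAs by base pairing. The main contact is the seed, nucleotides 2 to 8 from the 5′ end, and a matching stretch in the 3′ untranslated region (3′ UTR) usually lowers the amount of the mRNA and its translation. miR-183-5p belongs to the miR-183/96/182 cluster, which is best known from sensory organs and is often raised in tumours. FOXO1, EZR, ITGB1, PDCD4 and the PP2A catalytic subunits are among the targets reported for it.

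The mature mouse miRNAs are shown first because the question turns on how their seeds differ. The sequences are those of RefSeq (GRCm38.p6), not of the mimics themselves, which were not used here, and capitals mark the seed.
mmu-miR-183-5p: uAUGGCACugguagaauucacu
mmu-miR-142a-5p: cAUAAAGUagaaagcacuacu
mmu-miR-222-3p: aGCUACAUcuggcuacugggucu
The gene of the first lies on the minus strand at chr6:30169711-30169732, that of the second on the plus strand at chr11:87756867-87756887 and that of the third on the minus strand at chrX:19146901-19146923. No 2 of the seeds are alike, so an mRNA site that matches one does not match another by the same letters. The mRNA letters that pair with the seed of miR-183-5p are GTGCCAT.

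The 9 libraries held 16294611 to 22974853 estimated counts each, and 12950 to 13353 genes reached 10 counts. Within each number the miR-183-5p library had the most counts and the most genes at 10 counts. The totals for numbers 1, 2 and 3 were 22974853, 18927524 and 22363164 with miR-183-5p. They were 21801355, 16294611 and 18990222 with miR-142-5p, and 21502012, 17313377 and 20480976 with miR-222-3p. Of 14 macrophage markers 13 could be tested, and their summed level was 2411 to 3568 TPM, a level per transcript length, in the miR-183-5p libraries and 2494 to 3477 TPM in the others. Mertk was the marker at near 0 TPM. The 17 endothelial markers summed to 19.96 to 32.9 TPM in the miR-183-5p libraries and 18.8 to 38.1 TPM in the others, with Cldn5 and Sox17 at 0 in all 9 libraries. In bulk RNA, fewer cells that express a gene and less RNA per cell cannot be told apart. Libraries with the number 2 stood apart in several markers: Csf1r, the receptor for macrophage colony-stimulating factor, was at 858, 1470 and 1256 normalized counts there and at 1997 to 4639 elsewhere. The main and pairwise tests were blocked by number, as the rule of the comparison set, so that each miR-183-5p library was set against the others of its number. Group means and ranges are taken across numbers. Normalized counts are counts adjusted for library size and transcript length.

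Between miR-183-5p and the other mimics, 3 of 13758 genes tested passed an adjusted p of 0.05 (0.0218%), 2 of them higher and 1 lower with miR-183-5p. Camta1, which encodes a calmodulin-binding transcription activator, was lower, and Gm14399 and the long gene 4932438A13Rik were higher. The test was DESeq2's Wald test with the number as a block. Without an adjustment, 341 genes had p under 0.05 and were higher (2.48%) and 295 were lower (2.14%), together 636. The median log2 fold change over all genes was -0.004, and the middle of the absolute values was 0.082, so the usual difference between these macrophages was small. With edgeR's quasi-likelihood test, 0 genes passed and 751 had an unadjusted p under 0.05, and DESeq2 with no replicate block also called 0, with 77 at an unadjusted p under 0.05. Without the libraries numbered 2, DESeq2 called 14 genes, among them Nfat5, Gpnmb and Nbeal1. It gave no adjusted p for Camta1 and Gm14399 in that setting, and 4932438A13Rik did not pass there (adjusted p of 0.135). DESeq2's filter on mean counts left genes out of the adjustment there, so the 14 and the 3 are not counts over like sets of genes.

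**Figure D1:**
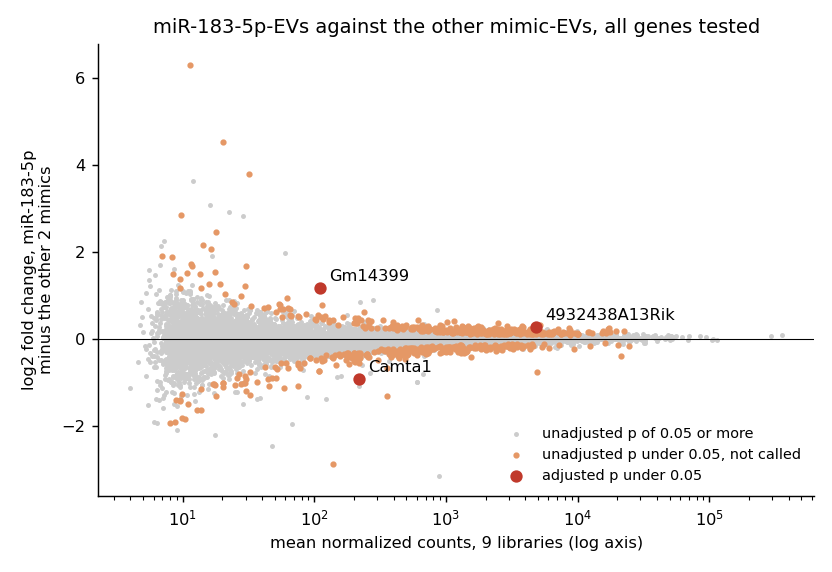
Each point is 1 of 13758 genes, with its mean normalized counts over 9 libraries on a log axis and its log2 fold change between miR-183-5p and the other 2 mimics. The 3 genes past an adjusted p of 0.05 are in red and named, and the others with an unadjusted p under 0.05 are in orange.

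Camta1 (chr4:150917322-151861876, minus strand, GRCm38) was at 114, 190 and 105 normalized counts in the miR-183-5p libraries numbered 1, 2 and 3. It was at 206, 412 and 172 with miR-142-5p and at 285, 297 and 182 with miR-222-3p. Within each number the miR-183-5p library was the lowest, although its library 2 lay above libraries 3 of both other mimics. The means were 136 ± 46.8 (SD, n = 3) and 259 ± 91.6 (SD, n = 6), and the log2 fold change was -0.91 ± 0.16 (SE), with a DESeq2 adjusted p of 0.00035. It was -0.90 against miR-142-5p and -0.93 against miR-222-3p.

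The Camta1 difference was far smaller when the adjustment for transcript length was left out. The gene's estimated counts before any adjustment were 170, 225 and 193 with miR-183-5p, and 185, 236 and 206 with miR-142-5p and 194, 227 and 175 with miR-222-3p. The groups overlap on that scale, which is not adjusted for library size either. Its mean effective length, which weights each of its 13 listed transcripts by its share, was 904 to 1086 bases in the miR-183-5p libraries and 445 to 847.5 bases in the others. A transcript with an effective length of 74.0 to 82.96 bases, ENSMUST00000214673, received 3.66 to 6.07 estimated counts with miR-183-5p and 7.31 to 23.2 in the others. When the length term was left out and library size still adjusted for, the log2 fold change of Camta1 was -0.18 and its DESeq2 adjusted p 0.999. Its call was also lost without miR-183-5p library 1 (-0.83, DESeq2 adjusted p of 0.0847) and without all libraries numbered 1 (-0.82, 0.108). The gene also overlaps Vamp3 and Per3 on its own strand.

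Gm14399 (chr2:175129493-175142012, minus strand), a predicted protein-coding gene, was at 137, 194 and 189 normalized counts with miR-183-5p. It was at 95.6, 55.0 and 93.2 with miR-142-5p and at 105, 37.1 and 86.3 with miR-222-3p. All 3 miR-183-5p libraries lay above the other 6, and the log2 fold change was 1.17 ± 0.26 (SE), with a DESeq2 adjusted p of 0.034. Estimated counts before adjustment were 157, 51.5 and 159 with miR-183-5p, within the range of 36.9 to 171 in the others. The mean effective length was 563 bases with miR-183-5p and 1118 bases otherwise. Without the length term the log2 fold change was 0.06 and the adjusted p 0.999. Without miR-183-5p library 2 it was 0.77 (DESeq2 adjusted p of 0.549), and the call was also lost with each mimic as its own level (0.0861) and with all 12 libraries (0.283). It was lost too without miR-183-5p library 3 (0.177), without number 3 (0.291) and without miR-222-3p library 2 (0.056) or 3 (0.0863). Leaving out any miR-142-5p library also ended it (0.0502 to 0.0672). Gm14399 passed in 8 of the 21 alternatives that gave it an adjusted p.

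4932438A13Rik (chr3:36863104-37053033, plus strand) was the called gene whose fold change moved least when the length term was left out. It was at 5195, 6267 and 5042 normalized counts with miR-183-5p, at 4517, 4550 and 4352 with miR-142-5p, and at 4366, 4984 and 4507 with miR-222-3p. The 3 libraries and the 6 did not overlap on this scale. Estimated counts before adjustment were 6127, 5067 and 6104 with miR-183-5p, 5315, 3278 and 4685 with miR-142-5p, and 4785, 3790 and 5132 with miR-222-3p. The groups overlap there, but these counts are not adjusted for library size. The miR-183-5p library numbered 2, at 5067, held 18927524 counts in total. The libraries of the other mimics that exceeded it were larger, with 21801355 for miR-142-5p library 1 and 20480976 for miR-222-3p library 3. The log2 fold change was 0.27 ± 0.06 (SE), with a DESeq2 adjusted p of 0.034. Its mean effective length was 8766 bases with miR-183-5p and 8934 bases otherwise, and without the length term the log2 fold change was 0.25 and the adjusted p 0.275. The call was lost whichever library or number was left out, with log2 fold changes of 0.21 to 0.31 and DESeq2 adjusted p of 0.0502 to 0.395. It was also lost with each mimic as its own level (0.127) and with all 12 libraries. Values of the miR-183-5p libraries lay above all the others for 29 genes (0.211%) and below all the others for 23 genes (0.167%).

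**Figure D2:**
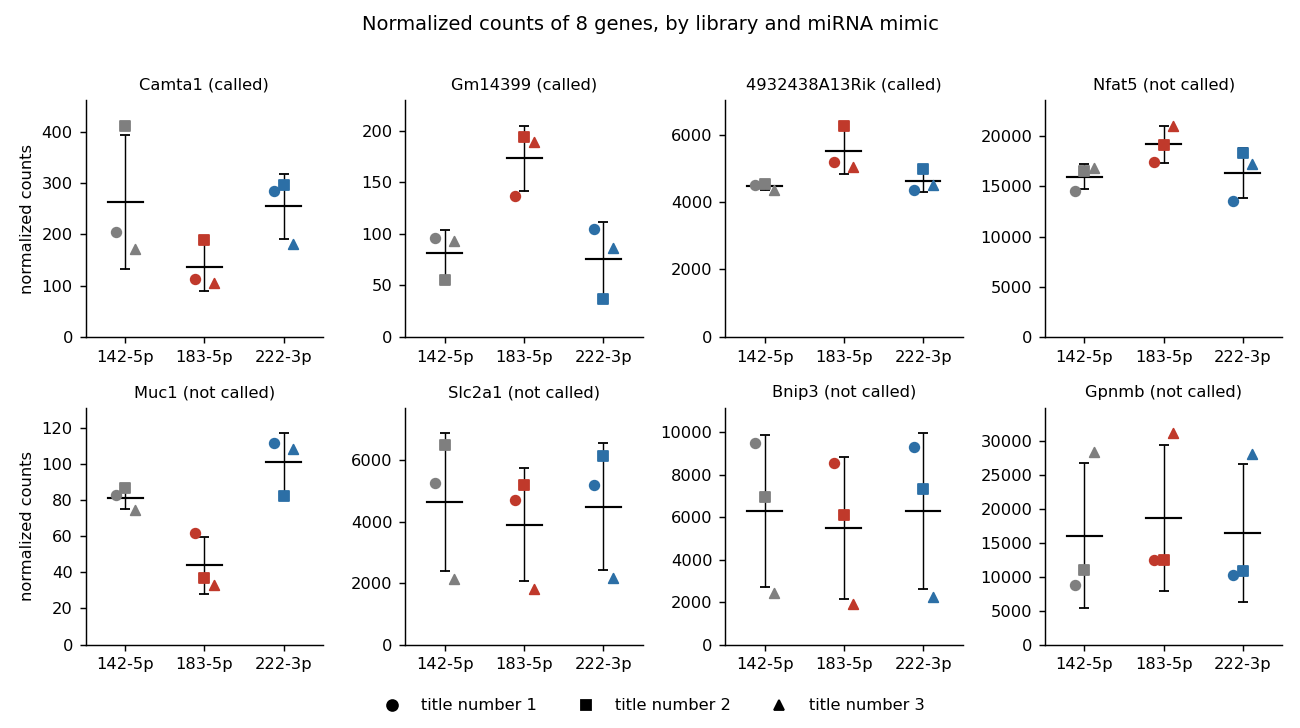
Normalized counts (vertical axis, from 0) of 8 genes in the 9 libraries, grouped by mimic, with symbols for the title number and bars for the mean and SD of 3 libraries. Gm14399, 4932438A13Rik and Muc1 do not overlap between miR-183-5p and the other mimics, whereas Slc2a1, Bnip3 and Gpnmb vary more between numbers than between mimics.

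Pairwise, 5 genes passed between miR-183-5p and miR-142-5p (0.0363%), 2 higher and 3 lower, and 493 had an unadjusted p under 0.05. They are named here after their values were seen. Camta1 and Il1rl1, the receptor subunit for interleukin-33, were lower, as was Gm28661, and Mier3, a transcriptional regulator, and Gm49450 were higher. Il1rl1 was at 54.5, 18.5 and 26.9 normalized counts with miR-183-5p and at 143, 53.4 and 79.3 with miR-142-5p. The miR-142-5p library exceeded the miR-183-5p library of its number in 3 of 3 numbers, and the log2 fold change was -1.48 ± 0.34 (SE), with a DESeq2 adjusted p of 0.044. With miR-222-3p, Il1rl1 was at 73.4, 41.6 and 35.1 normalized counts, and the log2 fold change of miR-183-5p against it was -0.64 ± 0.34 (SE), which did not pass. Against miR-142-5p, Il1rl1 was not called without the length term, with either correction for GC or length, or with any library left out. Nor was it called when genes had to average at least 50 normalized counts. The effective length of Il1rl1 was 4717 to 4849 bases with miR-183-5p and 2455 to 2792 bases with miR-142-5p. Gm28661 is near-identical to the mitochondrial gene mt-Co2, and Gm49450 to the tubulin genes Tuba1a, Tuba1b and Tuba1c, so the assignment of reads to both is uncertain. Between miR-183-5p and miR-222-3p, 0 genes passed (0%), the lowest DESeq2 adjusted p was 0.0747, and 382 genes had an unadjusted p under 0.05. edgeR called 0 genes in both pairwise comparisons. The pairwise comparisons share the miR-183-5p libraries and are not independent of each other.

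Below the threshold, genes were ranked by p if they averaged 50 or more normalized counts and if the miR-183-5p library was above both others, or below both, in 3 of 3 numbers. Over all genes tested, 550 were higher in that way (4%) and 566 lower (4.11%). The 3 called genes and the 17 next by p made a set of 20, 12 higher and 8 lower. None of the 17 passed, and their values are given as measured.

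Among those on the higher side, Nfat5, the transcription factor of the osmotic stress response, was at 17410, 19080 and 21050 normalized counts with miR-183-5p. It was at 14540, 16550 and 16830 with miR-142-5p and at 13550, 18300 and 17180 with miR-222-3p. Only library 2 of miR-222-3p reached into the range of the miR-183-5p libraries. The log2 fold change was 0.25 ± 0.06 (SE), with a DESeq2 adjusted p of 0.053. Without the libraries numbered 2 it was 0.31 (DESeq2 adjusted p of 2.5e-05), without number 1 it was 0.22 (0.897), without number 3 it was 0.22 (0.623) and without the length term 0.17 (0.970). Gpnmb, a lysosome-associated glycoprotein of macrophages, was at 12430, 12510 and 31130 normalized counts with miR-183-5p. The libraries with miR-142-5p held 8818, 10920 and 28320 and those with miR-222-3p 10190, 10880 and 28130. Number 3 stood far above the other numbers in every group, and within each number miR-183-5p was the highest, with a log2 fold change of 0.24 ± 0.06 (SE). Aff4, a scaffold of the super elongation complex, had a log2 fold change of 0.32, the endoplasmic reticulum chaperone Erp44 0.27, the phosphate transporter Slc20a1 0.22 and the small GTPase Nras 0.19. The others were 4931406P16Rik (0.42), Mier3 (0.39), Nbeal1 (0.37) and Ttc17 (0.31). Without the length term 4931406P16Rik, Ttc17 and Nras came to 0.06 each.

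Among those on the lower side, Muc1, a membrane mucin, was at 62.0, 36.8 and 32.8 normalized counts with miR-183-5p. It was at 82.7, 87.0 and 74.7 with miR-142-5p and at 112, 82.5 and 109 with miR-222-3p, so that the groups did not overlap. Its log2 fold change was -1.08 ± 0.25 (SE), with a DESeq2 adjusted p of 0.053, and it was -0.34 without the length term. The glucose transporter Slc2a1 was at 4714, 5181 and 1799 normalized counts with miR-183-5p. It was at 5242, 6502 and 2142 with miR-142-5p and at 5185, 6120 and 2150 with miR-222-3p, and the miR-183-5p library was the lowest of its number each time. The log2 fold change was -0.23 ± 0.05 (SE), with an adjusted p of 0.054. Bnip3, a hypoxia-induced mitophagy receptor, had a log2 fold change of -0.21 ± 0.05 (SE). The immune checkpoint receptor Vsir was at -0.41, the matrix protease Mmp9 at -0.39, the purine synthesis enzyme Pfas at -0.31 and 9930104L06Rik at -0.46. Without the length term Vsir was at -0.24, Pfas at -0.14 and 9930104L06Rik at -0.046, and without miR-183-5p library 2 Vsir was at -0.20.

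The 12 genes on the higher side had a median transcript length of 4874 bases and a median GC content of 43.0%, and all 12 were under 50% GC. The 8 on the lower side had medians of 2708 bases and 54.0%. Over all genes tested the medians were 2482 bases and 50%. The fold changes followed GC content in the same sense across the 10873 genes that averaged 50 or more normalized counts, with a Spearman rho of -0.26, and of 0.13 for transcript length. Genes are not independent replicates, and the points share the same 9 libraries. Of 4 equal groups of genes by GC, the lowest (31.9 to 45.4%) held 150 genes that were higher at an unadjusted p under 0.05 and 35 that were lower. The highest (54.8 to 67.5%) held 27 that were higher and 112 that were lower.

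The relation with GC was not the same in the 3 numbers. In number 2 the median difference between miR-183-5p and the other 2 mimics went from 0.099 in the group lowest in GC to -0.095 in the highest, and in number 1 from 0.028 to -0.053. In number 3 it went the other way, from -0.024 to 0.031. After a correction of each library for GC content, with the block kept, 4 genes passed, of which Camta1, Gm14399 and 4932438A13Rik were also called without it and Bnip3 was added at -0.25 (DESeq2 adjusted p of 0.0035). The part of GC content in the other differences was not tested.

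**Figure D3:**
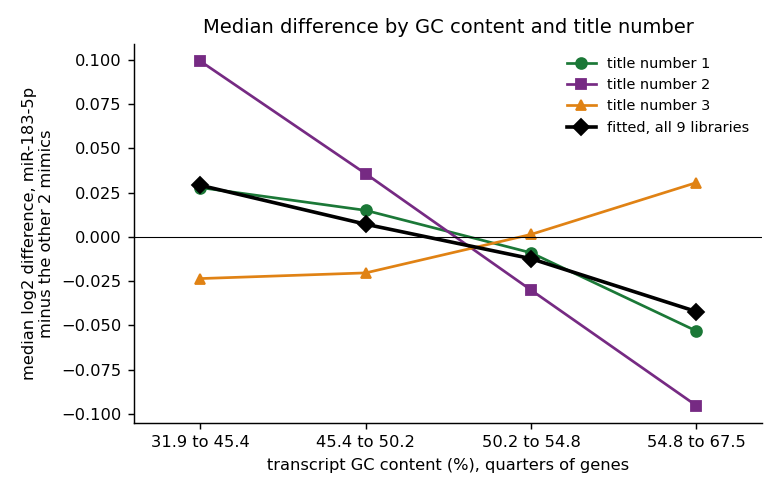
Median log2 difference between miR-183-5p and the other 2 mimics (vertical axis) in 4 equal groups of genes by the GC content of the transcript (horizontal axis, %), for each title number and for the fit of all 9 libraries. Numbers 1 and 2 slope down, to -0.053 and -0.095 in the group highest in GC, and number 3 slopes up, to 0.031.

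Genes with a seed site came next, because an mRNA that miR-183-5p represses should be lower in its libraries than in those of the other mimics. The letters GTGCCAT were searched on the mRNA strand in 1 annotated 3′ UTR per gene, that of its most abundant transcript by mean TPM. Of 11269 genes tested with such a 3′ UTR, 1023 (9.08%) held at least 1 site. A site of miR-142-5p, ACTTTAT, was held by 1574 and one of miR-222-3p, ATGTAGC, by 1049, and 8320 held none of the 3. The last 2 letters of the miR-183-5p site can also be the first 2 of the miR-222-3p site.

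Genes with a miR-183-5p site were not lower with miR-183-5p. Their median log2 fold change was 0.007, against -0.010 for genes with none of the 3 sites, 0.020 for genes with a miR-142-5p site and 0.015 for genes with a miR-222-3p site. Fewer of them lay below 0 (46.7%) than of the genes with none of the sites (54.0%). Of the 1023, 0 were called, 46 were higher at an unadjusted p under 0.05 (4.50%) and 21 lower (2.05%), beside 1.92% higher and 2.31% lower among genes with none of the sites. The medians by number were 0.009, 0.028 and -0.008. With a site extended by an A opposite nucleotide 1, the longer site GTGCCATA, 181 genes remained, with a median of 0.016. For the 81 genes with at least 2 of the 7-letter sites it was 0.013.

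Genes with a site had longer 3′ UTRs (median 2342 bases) and a lower GC content (48.3%) than genes with none of the 3 (657 bases, 51.2%). Where both sets were limited to 3′ UTRs of 1283 to 3738 bases, the medians were 0.003 for 511 genes with a miR-183-5p site and 0.004 for 2020 genes with none. For the 643 genes with a miR-183-5p site and neither of the other sites, the median was -0.007. Against miR-142-5p alone the 1023 genes had a median of -0.000, and against miR-222-3p alone 0.021.

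**Figure D4:**
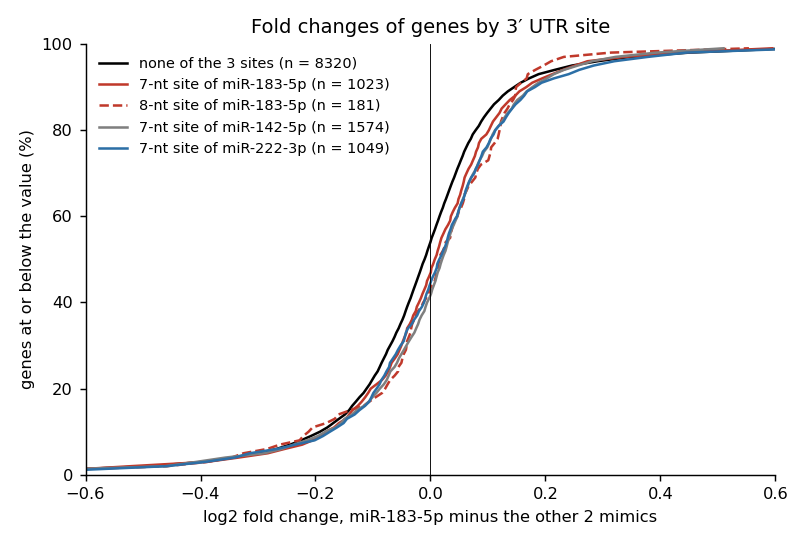
Share of genes at or below each log2 fold change between miR-183-5p and the other 2 mimics (horizontal axis), for genes grouped by 3′ UTR site. At the middle, the curves of genes with a site of any of the 3 miRNAs lie slightly to the right of that of the 8320 genes with none (median 0.007 for miR-183-5p against -0.010), and in the tails the curves cross.

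Of 18 reported targets of miR-183-5p that could be tested, 0 were called. Of them, 12 had a log2 fold change above 0 and 6 below, with a median of 0.014, and 17 had an annotated 3′ UTR in the transcript searched, 10 with a GTGCCAT site. The sites that matter most for what follows are printed with their surroundings from GENCODE vM21 (GRCm38), 30 bases each on the mRNA strand, and capitals mark the letters that pair with the seed and, where it is present, the A opposite nucleotide 1.
Foxo1, chr3:52347204-52347233, plus strand: agataaggactGTGCCATtgggaatcatta
Idh2, chr7:80094863-80094892, minus strand: ggaatcacatgGTGCCATAtttagctacta
Taok1, chr11:77534411-77534440, minus strand: tttctccatttGTGCCATttacaagtggaa
Ppp2ca, chr11:52122097-52122126, plus strand: gaccaaaagatGTGCCATAtaaaatacaaa
Ppp2cb, chr8:33619335-33619364, plus strand: tggaccaaaacGTGCCATActaatgatgag
Ezr, chr17:6738975-6739004, minus strand: gtggctcacggGTGCCATActtttctctag
Itgb1, chr8:128732663-128732692, plus strand: ttaaaacctgtGTGCCATtgtgagttactt
Pdcd4, chr19:53929437-53929466, plus strand: ctactttctaaGTGCCATgtttaggacctg

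Idh2, the mitochondrial isocitrate dehydrogenase, was the reported target with the lowest value relative to its error. It was at 2882, 2568 and 2381 normalized counts with miR-183-5p. With miR-142-5p it was at 3078, 3290 and 2442 and with miR-222-3p at 3116, 3157 and 2557. The miR-183-5p library was the lowest of its number in 3 of 3 numbers. The log2 fold change was -0.16 (95% interval -0.29 to -0.04), which did not pass after adjustment (DESeq2 adjusted p of 0.819). Foxo1, a transcription factor held in check by AKT, was at 257, 415 and 354 normalized counts with miR-183-5p. With miR-142-5p it was at 267, 437 and 411 and with miR-222-3p at 286, 443 and 385. It too was the lowest of its number each time, and the fold change came to -0.12 on the log2 scale (95% interval -0.32 to 0.08). Both are named after their values were seen, and of 18 reported targets these were the 2 on the lower side in 3 of 3 numbers (background 4.11%).

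The other printed targets had log2 fold changes of -0.01 to 0.24. Taok1, a kinase of the stress-activated pathway, stood at 2675, 4833 and 3036 normalized counts with miR-183-5p, at 2475, 3108 and 3069 with miR-142-5p, and at 2373, 3697 and 2817 with miR-222-3p. Its 3′ UTR also holds 1 site each of miR-142-5p and miR-222-3p. Its largest excess was in number 2, and its log2 fold change was 0.24 (95% interval 0.06 to 0.41). The PP2A catalytic subunits Ppp2ca and Ppp2cb were each at 0.01, with intervals of -0.09 to 0.11 and -0.14 to 0.16. The membrane-cytoskeleton linker Ezr was at 0.05 (-0.09 to 0.19), the integrin subunit Itgb1 at -0.01 (-0.12 to 0.10) and the translation inhibitor Pdcd4 at 0.05 (-0.12 to 0.21).

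Sites were also counted in the set of 20 genes above. Of 17 with an annotated 3′ UTR, 5 held a miR-183-5p site, beside 9.08% of all genes tested that have a 3′ UTR. These were Nfat5, 4931406P16Rik, Ttc17, Aff4 and Erp44, and all 5 were on the higher side. Nfat5 and Aff4, with 3′ UTRs of 8365 and 6315 bases, also hold sites of both other mimics. With the control libraries left out, a rise with miR-183-5p and a fall with the other mimics cannot be told apart for any gene. 4931406P16Rik, Ttc17 and Erp44 hold no site of the other mimics. Also on the higher side, Nbeal1 and Mier3 hold 1 site each of miR-142-5p and of miR-222-3p, and Nras 1 of miR-142-5p. These hold no miR-183-5p site, and 4932438A13Rik, Gpnmb and Slc20a1 hold no site of any of the mimics. Ttc17, which encodes a tetratricopeptide repeat protein, held 2 miR-183-5p sites, printed here because they lie in a gene with a log2 fold change of 0.31.
Ttc17, first site, chr2:94328308-94328337, minus strand: gacttcctagtGTGCCATtcaagacccttt
Ttc17, second site, chr2:94328135-94328164, minus strand: ttgaaactcaaGTGCCATttctcctttgct
Of the 8 on the lower side, 6 had an annotated 3′ UTR and 0 held a site.

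Gene lists were then read by their counts and medians. No member of any list was called except Camta1, which stands in a list of genes noted in earlier work on these libraries. Members are named as examples after their values were seen.

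Of the lists with at least 10 genes tested, that of glycolysis and hypoxia-response genes had the largest share of members lowest in every number. Cells shift to glycolysis when the hypoxia-inducible factors are active, and these genes encode the transporters, enzymes and regulators of that response. Of 27 tested, 0 were called, 20 had a log2 fold change below 0, 6 had an unadjusted p under 0.05 and were lower (22.2%, background 2.14%), and 0 were higher. The median was -0.076, beside -0.004 for all genes, and it was -0.111, -0.026 and -0.062 in numbers 1, 2 and 3. Against miR-142-5p alone the median was -0.082 and against miR-222-3p alone -0.030. The genes of this list had a median GC content of 52.8%, beside 50% for all genes tested. After the correction for GC content the median was -0.056. The miR-183-5p library was the lowest of its number in 3 of 3 numbers for 7 of the 27 (25.9%, background 4.11%). Hk2, the inducible hexokinase, was one of them, at 3042, 3803 and 1810 normalized counts with miR-183-5p, 3554, 4142 and 1955 with miR-142-5p, and 3636, 4098 and 1918 with miR-222-3p. Its log2 fold change was -0.15 ± 0.06 (SE). Vegfa, the angiogenic growth factor, was at -0.18, and the glycolytic enzyme Eno1 at -0.09. Adm, the vasodilator peptide adrenomedullin, was at -0.26 but not lowest in number 3. The factor itself, Hif1a, was at 0.06. These genes also differed strongly between numbers whatever the mimic, as Bnip3 shows with 8536 to 9483 normalized counts in number 1 and 1915 to 2413 in number 3. Across the 22 other settings of the processing the median of the list stayed between -0.084 and -0.052.

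**Figure D5:**
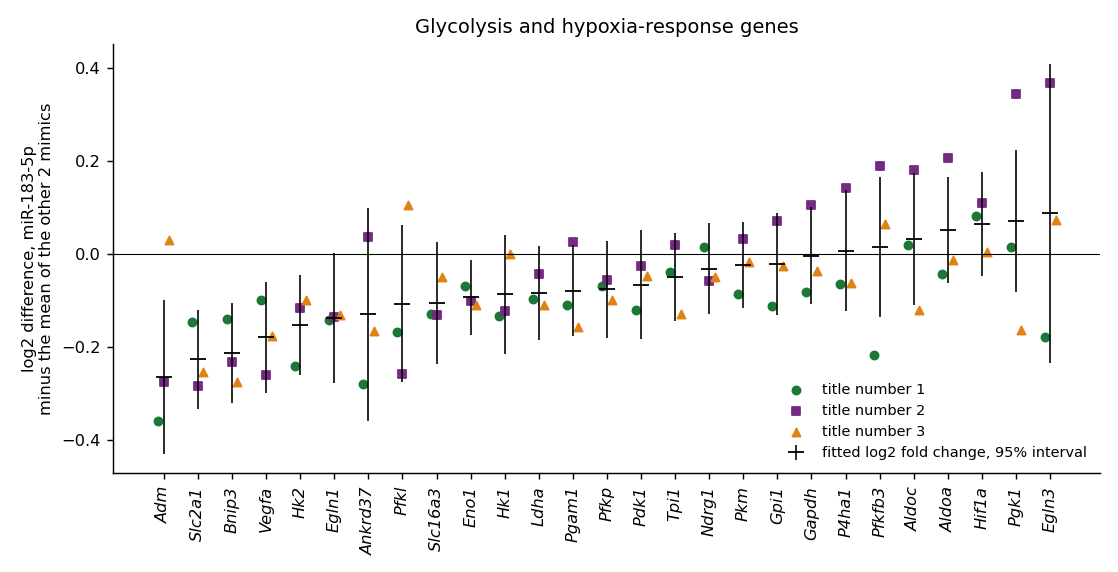
Log2 difference between miR-183-5p and the mean of the other 2 mimics (vertical axis) for the 27 glycolysis and hypoxia-response genes tested, as coloured symbols for each title number and as the fitted fold change with its 95% interval in black. Genes are ordered by fold change from Adm at the left (-0.26), and Slc2a1, Bnip3, Vegfa, Hk2 and Egln1 lie below 0 in all 3 numbers, whereas Adm does not in number 3.

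Genes of the microRNA pathway leaned the other way. Of 25 tested 20 were above 0, 4 were higher at an unadjusted p under 0.05 (16%, background 2.48%) and 0 lower, with a median of 0.055 and medians of 0.013, 0.143 and 0.012 by number. Ago2, the slicing Argonaute, was at 4318, 9600 and 6730 normalized counts with miR-183-5p, 4002, 7963 and 6464 with miR-142-5p, and 3967, 8123 and 6334 with miR-222-3p. It was the highest of its number each time, with a log2 fold change of 0.15 ± 0.05 (SE). The genes of this list are long, with a median transcript of 5576 bases, and low in GC (47.5%), the kind of gene that was higher in general. After the correction for GC content the median was 0.041.

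The polarization genes, which the vesicles were studied for, gave no called gene. Arg1, the arginase of alternatively activated (M2) macrophages, had too few counts to be tested, at 2.19 to 19.7 normalized counts over the 9 libraries. Tgfb1 was at 857, 680 and 759 normalized counts with miR-183-5p and at 744 to 820 in the others, with a log2 fold change of -0.02 (95% interval -0.18 to 0.15). Nos2, the nitric oxide synthase of classically activated (M1) macrophages, was at 138, 46.0 and 22.8 normalized counts with miR-183-5p. With miR-142-5p it was at 212.5, 25.1 and 41.9 and with miR-222-3p at 208, 41.3 and 25.8, so that the number mattered more than the mimic, and the interval of its log2 fold change was -0.79 to 0.28. Il1b was at 12.2 to 43.1 normalized counts with miR-183-5p and 18.1 to 48.4 otherwise. Of 11 canonical M1 markers 9 were below 0 (median -0.104), and of 7 canonical M2 markers 5 (median -0.020). The M1 median was -0.012, -0.200 and -0.026 by number, and without number 2 it was 0.027. Il4ra, the interleukin-4 receptor subunit, was at 336, 232 and 510 normalized counts with miR-183-5p, 469, 346 and 514 with miR-142-5p, and 551, 266 and 551 with miR-222-3p, with a log2 fold change of -0.34 ± 0.13 (SE).

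The longer lists that the study took from other work held 0 called genes. Its M1 in vitro list had 488 genes tested, 11 higher and 18 lower (3.69%, background 2.14%) at an unadjusted p under 0.05, with 299 below 0 and a median of -0.031. Its M2 in vitro list had 283, of which 17 were higher (6.01%, background 2.48%) and 4 lower, yet the median was -0.020. The in vivo M1 list (27 genes), the in vivo M2 list (20) and the list of tumour-associated macrophage genes (103) had medians of -0.061, 0.014 and -0.009.

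The lowest median belonged to a short list, 8 replication-dependent histone genes, of which 7 were below 0 (median -0.165), 0 had an unadjusted p under 0.05 and the medians were -0.128, -0.391 and -0.016 by number. Their transcripts mostly lack a poly(A) tail. Of 22 cholesterol synthesis and uptake genes 19 were above 0 (median 0.085), but this rested on number 2, where the median was 0.406 beside -0.155 in number 1 and 0.009 in number 3. Without number 2 it was -0.076. Of 39 interferon-stimulated genes 29 were below 0 (median -0.062), with medians of 0.094, -0.265 and -0.057 by number, and without number 2 the median was 0.033. Of 52 cell cycle and replication genes 7 were lower at an unadjusted p under 0.05 (13.5%, background 2.14%), among them E2f1, which drives entry into S phase (log2 fold change -0.30), the helicase subunit Mcm3 (-0.19) and the kinase inhibitor Cdkn1a (-0.16), and 2 were higher. The list's median was -0.006, with -0.159, 0.125 and -0.007 by number. Of 37 lysosomal genes 24 were above 0 (median 0.034). The NADPH oxidase genes had a median of 0.001, the 80 cytosolic ribosomal proteins 0.007, the nuclear oxidative phosphorylation genes -0.030 and the 41 proteasome subunits -0.012. For the 13 mitochondrially encoded genes it was 0.034.

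Genes noted in earlier work on these libraries for a difference between miR-183-5p and control vesicles were set against the other mimics as well. They were chosen on the same miR-183-5p libraries, so their direction is not independent evidence. Dnajc12, a co-chaperone, was at 131, 149 and 144 normalized counts with miR-183-5p, 153, 162 and 218 with miR-142-5p, and 170, 184 and 192 with miR-222-3p. The 3 libraries lay below the other 6, and the log2 fold change was -0.35 (95% interval -0.65 to -0.05), which did not pass (DESeq2 adjusted p of 0.943). Gm10273 was at 110, 22.1 and 107 normalized counts with miR-183-5p and at 0.89 to 32.2 in the others, with a log2 fold change of 3.8 ± 1.15 (SE) and an adjusted p of 0.319. It is near-identical to Timm23, a subunit of the mitochondrial import channel, whose log2 fold change was 0.04, so its reads may have been split between the pair. Dnmt3a, a de novo DNA methyltransferase, was at 6296, 4386 and 5041 normalized counts with miR-183-5p, 5951, 4617 and 3679 with miR-142-5p, and 5868, 3793 and 4128 with miR-222-3p. It was not the highest in number 2, and its log2 fold change was 0.18 ± 0.08 (SE). Cybb, the catalytic subunit of the phagocyte NADPH oxidase, was at 0.002 (95% interval -0.27 to 0.27), Clptm1 at -0.21, the DNA damage kinase Atm at -0.16 and Gm14295 at 0.30.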

How the data were processed

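Poly(A) RNA of RAW 264.7 cells was sequenced by the study's authors, who quantified each library with Salmon. The files, as deposited by the authors, hold the estimated count that Salmon assigned, a TPM value and an effective length for each mouse transcript. Transcripts were matched to GENCODE vM21 (GRCm38) by identifier (116622 of 118783, 98.2%) and summed to 35865 genes. Counts were rounded, and length offsets were formed as tximport does. Samples were grouped by title.

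A gene was tested if 3 or more of the 9 libraries held 10 or more counts of it. Tests were made with DESeq2 1.42.0 (R 4.3.3), with the title number as a block and Benjamini-Hochberg adjustment. Every gene tested had an adjusted p in the main and pairwise fits. DESeq2's own filter on mean counts was left on, so some alternatives adjusted over fewer genes. The 6 other libraries were 1 level in the main comparison, and each mimic was its own level in the pairwise ones. Deviations from group means correlated by 0.56 to 0.80 (mean 0.69, 9 pairs) between libraries of the same number, so the numbers pair the libraries. What a number marks is not stated. No pair of libraries of a group agreed within sampling noise. Log2 fold changes are not shrunken, and 95% intervals are Wald intervals (1.96 SE). Within-number differences are of log2(normalized count + 1). Depth was 16294611 to 22974853 counts, and the median SE of genes with a mean of at least 50 was 0.095.

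The genes named by rule were the called ones averaging 50 or more normalized counts and on 1 side of both other libraries in 3 of 3 numbers (at most 12 per direction), filled to 20 by the lowest p, with genes fixed by name and called members of lists. 3′ UTRs were taken from the annotation. Near-identical transcripts (at least 95% identity over 80%) were sought with BLAST+ 2.17.0. The scripts were tested on simulated data. edgeR 4.0.16, other scalings, filters and left-out libraries were alternatives. Some genes fixed by name or held in a list are not reported here. Members and lists were chosen with earlier results of these data known.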

Additional observations from a re-analysis of the deposited data

How the results depend on the processing

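The count of 3 genes for miR-183-5p against the other mimics depended on the settings. It was 0 with no replicate block (77 genes at an unadjusted p under 0.05), 0 with edgeR and the block and 0 with no length offset, 1 with 3 levels, 7 with a mean of at least 50 and 12 with no filter on low counts. Leaving out libraries gave 2 to 14, with 14 when the libraries numbered 2 were left out (Camta1 and Gm14399 had no adjusted p there), 7 without miR-183-5p replicate 2, and 5 without miR-183-5p replicate 3 or without number 3. Against miR-142-5p the 5 genes became 0 with no replicate block, 0 with edgeR, 33 with no filter, 3 with a mean of at least 50, 3 with no length offset, 1 with the GC correction, 0 with the gene length correction and 2 with all 12 libraries. Leaving out libraries gave 0 to 13 there. Against miR-222-3p the count was 38 with no filter and 0 to 9 with libraries left out, 9 without number 2. The samples are paired by number, and the fit with no replicate block ended every call. The causes were not tested. Some fold changes changed sign. With no length offset Gm14295 was -0.084 and Atm 0.071. With the GC correction Tgfb1 was 0.047 and Cybb -0.031. Cybb was also -0.13 with no replicate block, -0.0084 with edgeR, -0.00056 with no filter, -0.0081 with the length correction and -0.013 with all 12 libraries. With libraries left out, Cybb ranged from -0.15 to 0.267, Tgfb1 from -0.083 to 0.0445, Il1b from -0.439 to 0.0275 and Timm23 from -0.0154 to 0.0856. No member of the other cell type list was left with a mean of at least 50. The medians of seed-site genes moved by less than the spread between numbers in all alternatives run.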

Other observations

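The control vesicle libraries entered no test of the report other than the alternative fit of all 12 libraries. They are given here as values for the called genes, with no test, on a scale set over all 12 libraries. Camta1 was at 209, 256 and 205 normalized counts in them and at 106, 177 and 97.3 with miR-183-5p. 4932438A13Rik was at 4908, 4189 and 3440, and each lay below the miR-183-5p library of the same number, at 5074, 6126 and 4907. Gm14399 was at 156, 74.6 and 51.5, and its value in control library 1 lay above the miR-183-5p library of the same number.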
